A study of Mus musculus with 18 samples.

Results

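The 10 genes described here form the IRE1-XBP1 branch of the unfolded protein response and the core of ER-associated degradation (ERAD) that this branch supplies. They are Ern1, Xbp1, Sel1l, Syvn1, Herpud1, Edem1, Edem2, Derl1, Derl2 and Derl3, taken by name, with earlier results of these data known. Each matched 1 of the 51499 loci of the deposited expression table by gene symbol, and no member shared its locus with another gene. A locus was analysed when its mean over the 6 groups was at least 1 FPKM (a fragment count divided by transcript length and library size), which 9 members and 11929 loci passed. Derl3 did not pass.

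The cells were mouse embryonic fibroblasts (MEFs) labelled Ago2+/+ or Ago2-/-, lines received as a gift. The study states that the lines were not authenticated and that the Ago2-/- cells were tested by western blot for absence of the protein. AGO2 is the Argonaute protein that cuts RNA in RNA interference, and the series asked how mRNAs behave without it when the endoplasmic reticulum (ER) is stressed. Each genotype was given the solvent DMSO, tunicamycin, which blocks N-linked glycosylation, or thapsigargin at 500 nM, which inhibits the calcium pump that fills the ER. The 6 groups are Ago2+/+ DMSO, Ago2+/+ tunicamycin, Ago2+/+ thapsigargin, Ago2-/- DMSO, Ago2-/- tunicamycin and Ago2-/- thapsigargin, with 3 RNA sequencing libraries in each. The table gives 1 value per group, computed by the authors over its 3 libraries. The table holds no value per library and no depth. Its columns with the authors' own test results were not used, so the ratios below carry no error and no p-value, and all levels are the authors' pooled FPKM.

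IRE1, the product of Ern1, is an ER membrane sensor with a kinase and a ribonuclease domain. When unfolded proteins gather in the ER lumen, it cuts a short intron out of Xbp1 mRNA, the RTCB ligase joins the ends, and the shifted reading frame encodes XBP1s, a transcription factor of chaperone, translocation and ERAD genes. ERAD recognises misfolded glycoproteins through EDEM proteins and lectins, passes them through a membrane channel built from SEL1L, the ubiquitin ligase HRD1 (gene Syvn1), HERP (gene Herpud1) and derlins, and hands them to the VCP segregase and the proteasome. IRE1 can also cut other mRNAs near the ER, a process called RIDD (regulated IRE1-dependent decay).

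The site that IRE1 cuts is shown first, because it links the first 2 members. It lies in exon 4 of the longest coding Xbp1 transcript, in the coding sequence, on the plus strand of chromosome 11 (GRCm38, sequence from GENCODE vM21), at chr11:5524264-5524320 in the window printed here. Capitals mark the 2 loops, each of the form CNGCAGN, in which IRE1 cuts after the third base.
Xbp1 splice site: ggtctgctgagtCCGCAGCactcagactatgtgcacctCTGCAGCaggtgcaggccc

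The cuts release 26 bases, 5524279 to 5524304. Removing them from the transcript changed the open reading frame from 267 to 371 residues. A further pair of such loops with the same spacing in exon 1 would shorten the frame to 73 residues and is not the known site. The values below count fragments over the whole Xbp1 locus, so they measure the amount of Xbp1 mRNA and not how much of it was spliced.

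Promoters of 9 members were found in the RefSeq table (GRCm38.p6), each covering 250 bases before to 50 bases after a transcript start, with a pair of starts for Derl2. Derl1 had no entry. Both strands were searched for the ER stress element ERSE (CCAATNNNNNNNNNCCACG), for ERSE-II (ATTGGNCCACG), for the XBP1-binding UPRE core TGACGTGG and for its variant TGACGTGA. The windows of Syvn1, Herpud1 and Derl3 held 1 match each, and these are printed because ERSE and ERSE-II are elements through which ATF6 and XBP1 are known to act. Capitals mark the element, which overlapped no other match.
Syvn1, ERSE on the plus strand, chr19:6046512-6046570: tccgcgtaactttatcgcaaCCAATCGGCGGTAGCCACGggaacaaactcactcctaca
Herpud1, ERSE-II on the plus strand, chr8:94386357-94386407: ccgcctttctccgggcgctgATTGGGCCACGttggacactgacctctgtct
Derl3, ERSE on the minus strand, chr10:75893222-75893280: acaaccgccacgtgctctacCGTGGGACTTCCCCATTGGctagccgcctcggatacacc

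All 3 windows are shown on the plus strand, which is also the strand of these genes. ERSE was found in 0.119% of 32851 promoters and ERSE-II in 0.0365%. TGACGTGG was present in 0.676% and TGACGTGA in 0.441% of promoters, and in the window of no member. The Herpud1 locus of the table begins upstream of the start used here. The absence of a match says only that these letters are not in this window, and a match is not a measured binding site.

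**Figure D1:**
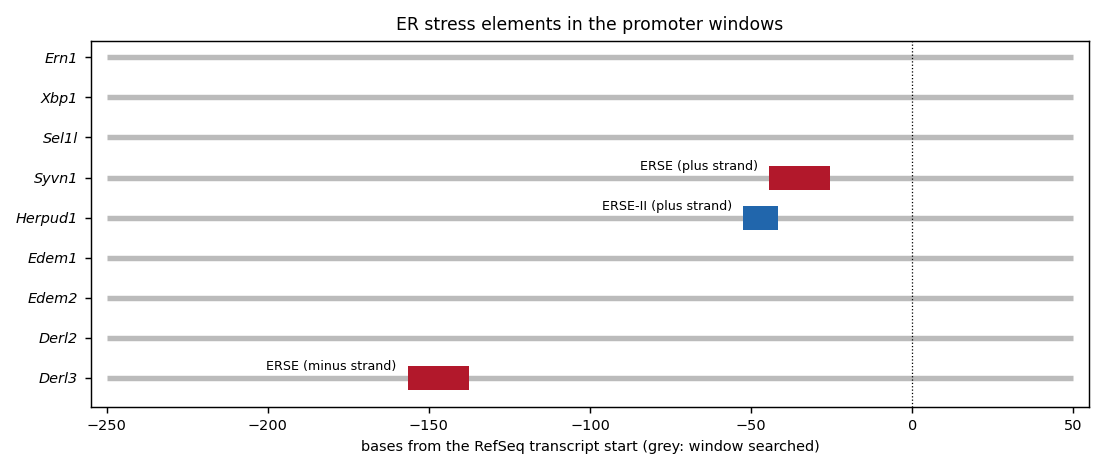
Position of ERSE and ERSE-II matches (coloured boxes) in the promoter windows of the 9 members with a RefSeq entry, in bases from the transcript start (grey lines mark the window searched, and the pair of Derl2 windows, both without a match, is drawn as 1 line). The Syvn1 element spans -44 to -26, the Herpud1 element -52 to -42 and the Derl3 element -156 to -138.

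The labels of the groups were checked before the members were read. Under DMSO, tunicamycin and thapsigargin, Ago2 was at 22.1, 5.75 and 17.0 FPKM with the label Ago2+/+ and at 5.61, 15.5 and 20.7 FPKM with the label Ago2-/-. Ago2 was thus not low in all groups labelled Ago2-/-. Across the 11929 loci the 6 groups fell into 3 pairs that cross genotype and treatment labels. The rank correlation was 0.985 between Ago2+/+ tunicamycin and Ago2-/- DMSO, 0.985 between Ago2+/+ thapsigargin and Ago2-/- tunicamycin, and 0.977 between Ago2+/+ DMSO and Ago2-/- thapsigargin. The other 12 pairs of groups lay between 0.876 and 0.906. Y-linked Ddx3y and Eif2s3y were listed at 0 in 4 groups and lay between 23.3 and 32.3 FPKM in Ago2+/+ thapsigargin and Ago2-/- tunicamycin. The locus of X-linked Xist, which holds other genes too, was at 46.6 FPKM in Ago2+/+ DMSO and 33.5 FPKM in Ago2-/- thapsigargin. It was at most at 0.0574 FPKM elsewhere. Each stressor group thus differed from the DMSO group of its label in Xist, in the Y-linked genes or in both. In addition, 4 of the 18 libraries carry labels that conflict on genotype. Every direction below therefore holds for the groups as labelled, and a difference between treatments or genotypes cannot be told apart from a difference between cell populations.

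Some fibroblast markers were present in all groups, with Vim between 952 and 2634 FPKM, although Thy1 was listed at 0 throughout and Dcn stayed between 0.0265 and 1.06 FPKM. Others were low in some groups. In Ago2+/+ tunicamycin and Ago2-/- DMSO, Pdgfra was at 0.488 and 0.903 FPKM and Col1a1 at 6.77 and 5.97 FPKM. Pdgfrb was at 0.540 and 0.799 FPKM in Ago2+/+ DMSO and Ago2-/- thapsigargin. Markers of other lineages were low. The 4 epithelial markers summed to between 0.182 and 1.33 FPKM, the 3 leukocyte markers to between 1.17 and 1.89 and the pair of endothelial markers to between 0.0225 and 0.122. Smooth muscle markers were the exception: Acta2 and Tagln stood at 1644 and 648 FPKM in Ago2+/+ thapsigargin and at 1252 and 444 FPKM in Ago2-/- tunicamycin, and at most at 3.77 FPKM elsewhere, while the defining smooth muscle gene Myh11 stayed between 0.0280 and 0.0730 FPKM in all groups. The stress marker Hspa5, which encodes the chaperone BiP, was at 4808, 6746 and 5367 FPKM in Ago2+/+ under DMSO, tunicamycin and thapsigargin. In Ago2-/- it was at 7682, 5155 and 3677 FPKM. Ddit3, which encodes the stress factor CHOP, was at 237, 282 and 345 FPKM in Ago2+/+ in the same order of treatments. In Ago2-/- it was at 339, 349 and 253 FPKM.

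Of the 9 members that passed the filter, the sensor gene Ern1 varied most, and it was lowest in the groups where most ERAD genes were highest. Ern1 lies on the minus strand of chromosome 11 (106394650 to 106487852). With the label Ago2+/+ its level was 42.8 FPKM under DMSO, 18.4 FPKM under tunicamycin and 9.36 FPKM under thapsigargin. With the label Ago2-/- the corresponding levels were 20.8, 9.41 and 34.3 FPKM. Ern1 was lowest in Ago2+/+ thapsigargin and Ago2-/- tunicamycin, and the highest level was 4.57 times the lowest. On the scale of log2(FPKM + 1), on which all differences below are given, its range was 2.08. Of all loci analysed, 11.2% had a range at least as wide.

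Xbp1, on the plus strand of chromosome 11 (5520659 to 5525893), varied less. It was at 91.6, 74.9 and 117 FPKM in the Ago2+/+ groups under DMSO, tunicamycin and thapsigargin, and at 88.4, 131 and 93.7 FPKM in the corresponding Ago2-/- groups. Its highest values fell in Ago2-/- tunicamycin and Ago2+/+ thapsigargin, where Ern1 was lowest. The ratio of Xbp1 to Ern1 FPKM, which is per length, was 12.5 and 13.9 in Ago2+/+ thapsigargin and Ago2-/- tunicamycin and between 2.14 and 4.25 in the other 4 groups. As the cells were measured in bulk, fewer cells expressing a gene and less RNA per cell cannot be told apart.

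Within the HRD1 complex, the ligase and HERP varied while the adaptor varied little. Sel1l (chromosome 12, 91806043 to 91849157, minus strand), which encodes the adaptor that stabilises HRD1, was at 90.7, 102 and 84.6 FPKM in Ago2+/+ and at 97.7, 90.6 and 90.6 FPKM in Ago2-/- under DMSO, tunicamycin and thapsigargin. Its range was 0.27 on the log2 scale, and 94.4% of loci had a range at least as wide. Syvn1 (chromosome 19, 6046576 to 6057751, plus strand) was at 61.4, 107 and 121 FPKM in Ago2+/+ and at 94.7, 130 and 37.5 FPKM in Ago2-/- in the same order of treatments. The lowest level of Syvn1 stood in Ago2-/- thapsigargin and the highest in Ago2-/- tunicamycin, a range of 1.77. The ratio of Syvn1 to Sel1l FPKM was accordingly 0.413 in Ago2-/- thapsigargin and 1.44 in Ago2-/- tunicamycin.

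Herpud1 (chromosome 8, 94377872 to 94395377, plus strand), whose product recruits substrates and derlins to HRD1, was the most abundant member in every group. It was at 293, 349 and 431 FPKM in Ago2+/+ and at 334, 492 and 207 FPKM in Ago2-/- under DMSO, tunicamycin and thapsigargin. Herpud1 and Syvn1 put the 6 groups in the same order, from Ago2-/- thapsigargin through Ago2+/+ DMSO, Ago2-/- DMSO, Ago2+/+ tunicamycin and Ago2+/+ thapsigargin to Ago2-/- tunicamycin. Which neighbours in this order differ was not tested.

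The EDEM proteins trim mannose from misfolded glycoproteins and so mark them for ERAD. Edem1 (chromosome 6, 108828641 to 108859356, plus strand) was at 42.5, 40.1 and 70.5 FPKM in Ago2+/+ and at 34.4, 74.5 and 26.8 FPKM in Ago2-/- under DMSO, tunicamycin and thapsigargin. It had its 2 highest values in the same groups as Xbp1 and Syvn1, and a range of 1.44. Edem2 (chromosome 2, 155701677 to 155729475, minus strand), which starts the trimming, was at 18.9, 14.0 and 18.9 FPKM in Ago2+/+ and at 13.9, 20.1 and 15.9 FPKM in Ago2-/-. Its range of 0.50 lay below the median range of 0.73 over all loci.

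Derlins are membrane proteins of the retrotranslocation channel. Derl1 (chromosome 15, 57869502 to 57892448, minus strand) was at 41.0, 51.1 and 79.4 FPKM in Ago2+/+ and at 54.2, 82.1 and 31.4 FPKM in Ago2-/- under DMSO, tunicamycin and thapsigargin. Derl2 (chromosome 11, 71007164 to 71027371, minus strand) was at 28.8, 40.6 and 34.7 FPKM in Ago2+/+ and at 43.3, 35.9 and 27.9 FPKM in Ago2-/-. The 2 genes thus had different profiles: Derl1 was highest in Ago2-/- tunicamycin and Ago2+/+ thapsigargin, and Derl2 in Ago2-/- DMSO and Ago2+/+ tunicamycin. Derl3 (chromosome 10, 75893413 to 75895941, plus strand), the derlin found mainly in secretory tissues, was listed at 0 in 4 groups. It was at 0.438 FPKM in Ago2+/+ thapsigargin and at 0.551 FPKM in Ago2-/- tunicamycin, the groups in which Xbp1, Syvn1, Herpud1, Edem1 and Derl1 were also highest. No fold is given against a group listed at 0.

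**Figure D2:**
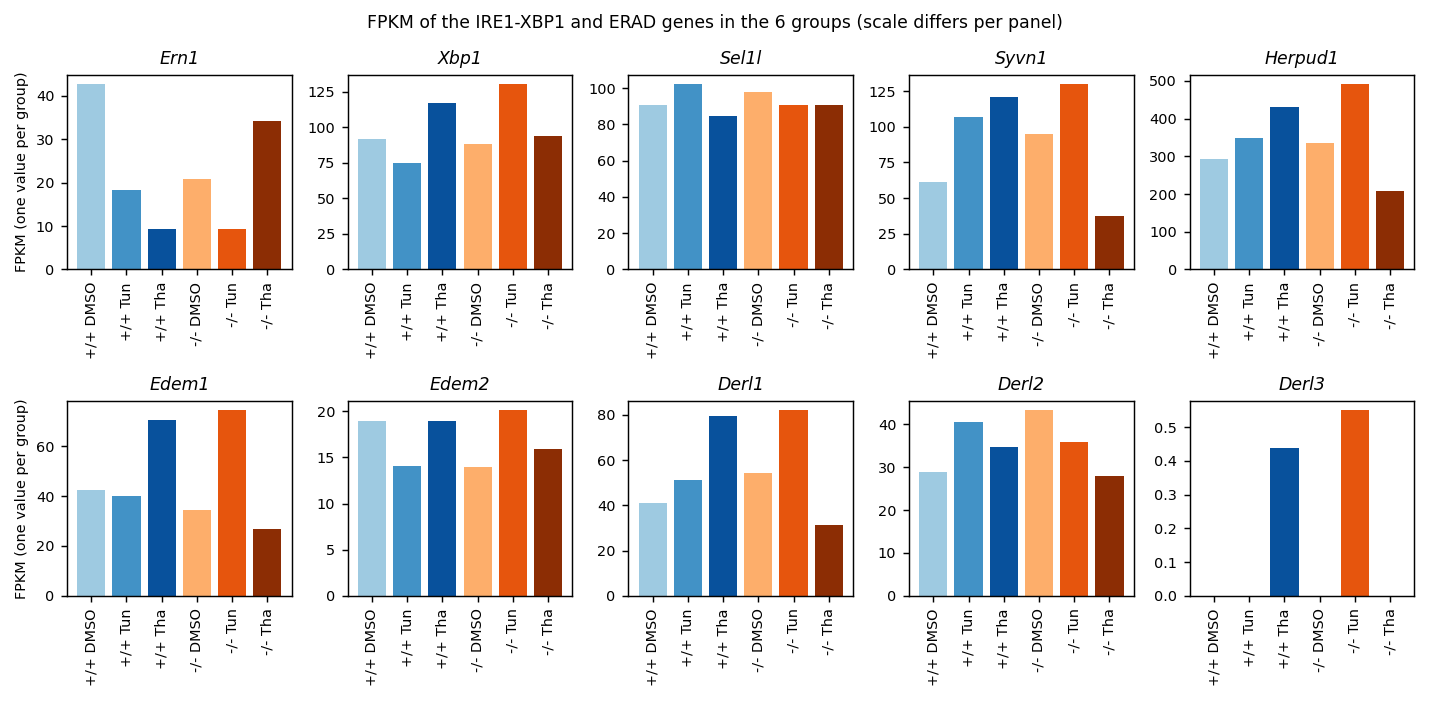
Level of each member (FPKM, vertical axis from 0, with its own scale in each panel) in the 6 groups, 1 pooled value per bar without error (Tun, tunicamycin; Tha, thapsigargin). Syvn1, Herpud1, Edem1 and Derl1 are highest in the -/- Tun and +/+ Tha bars and lowest in the -/- Tha bar, Ern1 is lowest in -/- Tun and +/+ Tha, and Sel1l stays between 84.6 and 102 FPKM.

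Ago2-/- tunicamycin and Ago2+/+ thapsigargin were also the groups with Y-linked mRNAs and with high Acta2 and Tagln, and of the fibroblast markers Col1a1 was highest there (651 and 521 FPKM against at most 112 FPKM elsewhere) while Vim (952 and 1181 FPKM) and S100a4, in a locus with other genes (330 and 285 FPKM), were lowest there. The part of these differences in the members' levels was not tested. The members were close within 2 of the cross-label pairs, as were loci in general. The largest difference of any member was 0.24 on the log2 scale between Ago2+/+ tunicamycin and Ago2-/- DMSO and 0.19 between Ago2+/+ thapsigargin and Ago2-/- tunicamycin. No member differed by 1.5-fold within either pair, against 1.94% and 2.36% of all loci. Between Ago2+/+ DMSO and Ago2-/- thapsigargin, 2 members did, against 5.62% of loci. These are Syvn1 (61.4 and 37.5 FPKM) and Edem1 (42.5 and 26.8 FPKM), both lower in Ago2-/- thapsigargin.

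Each stressor group was then compared with the DMSO group of the same genotype label. The stress markers Hspa5 and Ddit3 were higher than in DMSO in both Ago2+/+ stressor groups. In Ago2-/-, Hspa5 was lower in both stressor groups, and Ddit3 was near its DMSO level under tunicamycin and lower under thapsigargin. The ratios below are thus not read as responses to ER stress. A gene is called higher or lower when the ratio of FPKM + 1 was at least 1.5-fold, a threshold of size and not a test. Both stressors share the DMSO group of their label, and the genotype comparisons use the same groups again, so the comparisons are not independent. Median log2 ratios over all loci lay between -0.03 and 0.01 in all 7 comparisons.

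In cells labelled Ago2+/+, tunicamycin went with more Syvn1 and less Ern1. Syvn1 was 0.79 higher on the log2 scale and Ern1 1.17 lower (log2 ratio -1.17), so 1 of 9 members was called higher and 1 lower. Of all loci, 15.2% were called higher and 14% lower, so neither count exceeded the share of loci in general. The other 7 members lay between -0.41 (Edem2) and 0.48 (Derl2).

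Under thapsigargin 3 ERAD genes were higher in cells with the same label. Syvn1 had a log2 ratio of 0.97, Derl1 of 0.93 and Edem1 of 0.72, and Herpud1 lay just below the threshold at 0.56. Ern1 had a log2 ratio of -2.08, lower than that of all but 1.59% of loci. In all, 3 members were called higher and 1 lower, against 14.9% and 12.6% of loci. Edem2, with 18.9 FPKM in both groups, and Sel1l, with a log2 ratio of -0.10, were not called.

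In cells labelled Ago2-/-, tunicamycin went with more Edem1 and Derl1 and less Ern1. Edem1 had a log2 ratio of 1.09 and Derl1 of 0.59, just past the threshold of 0.58. Xbp1 and Herpud1 lay just below it at 0.56 each. Sel1l (-0.11) and Derl2 (-0.26) lay below 0, and Ern1 had a log2 ratio of -1.07. Thus 2 of 9 members were called higher and 1 lower, while 19.3% of loci were higher and 17.5% lower. The count called higher lay near the share of loci in general, and the count called lower did not exceed its share.

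For Ern1, Syvn1 and Derl1, the ratios of thapsigargin to DMSO in cells labelled Ago2-/- lay opposite to those in Ago2+/+. Syvn1 was lower by a log2 ratio of -1.32, Derl1 of -0.77, Herpud1 of -0.69 and Derl2 of -0.62, and Ern1 was higher by 0.69. Hence 1 member was called higher and 4 lower, against 14.3% and 16.8% of loci. Edem1 (-0.35) pointed the same way as the lower group without reaching the threshold, and Xbp1 was near no difference at 0.08. This group, Ago2-/- thapsigargin, had 20.7 FPKM of Ago2, the second highest value.

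**Figure D3:**
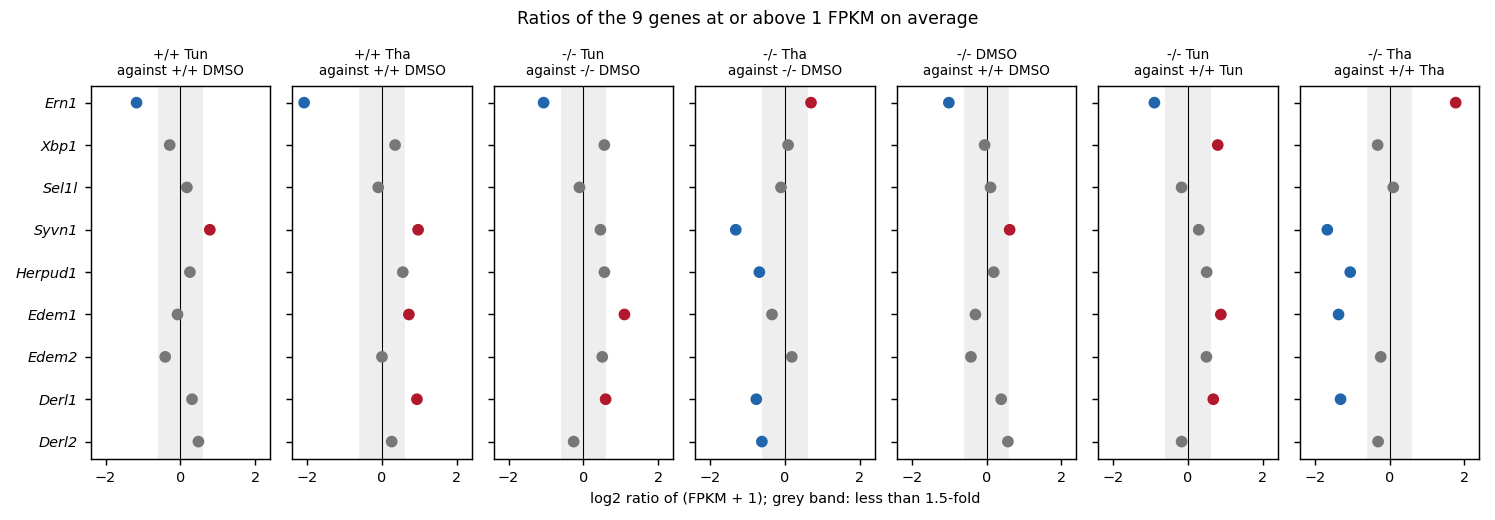
Log2 ratio of FPKM + 1 (horizontal axis) for the 9 members that passed the filter in the 7 comparisons; each point is 1 ratio of pooled values without error, red and blue points lie past 1.5-fold and the grey band marks smaller differences. Ern1 lies opposite to Syvn1 in all panels, from -2.08 against 0.97 in +/+ Tha to 1.77 against -1.66 between genotypes under Tha.

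The genotype labels were compared under each treatment, to ask whether the pathway differed between the labels. Under DMSO, Syvn1 was higher in Ago2-/- (log2 ratio 0.62) and Ern1 lower (-1.01), which is 1 of 9 members in each direction. Of all loci, 15.1% were higher and 14.3% lower, so neither count exceeded the share of loci in general. Derl2 lay just below the threshold at 0.57. Ago2 itself was lower in Ago2-/- in this comparison (5.61 against 22.1 FPKM). It was higher in Ago2-/- under tunicamycin (15.5 against 5.75 FPKM) and under thapsigargin (20.7 against 17.0 FPKM). In those 2 comparisons the group labelled Ago2-/- thus had more Ago2 mRNA, opposite to its label.

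Under tunicamycin, 3 members were called higher in Ago2-/-. These were Edem1 at 0.88, Xbp1 at 0.79 and Derl1 at 0.67, and Ern1 was lower at -0.90. Of all loci, 18.7% were higher and 17.1% lower. This was the only one of the 7 comparisons in which Xbp1 was called.

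Under thapsigargin the members differed most between the labels. Syvn1 had a log2 ratio of -1.66, Edem1 of -1.36, Derl1 of -1.31 and Herpud1 of -1.05, each lower in Ago2-/-, and Ern1 was higher by 1.77. So 1 member was called higher and 4 lower, against 12.4% and 15.9% of loci. For Ern1, 97.9% of loci had a lower ratio, and for Syvn1, 4.17% did. The remaining members, Xbp1, Sel1l, Edem2 and Derl2, lay between -0.32 and 0.10.

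The partners of IRE1 and the ligation machinery of Xbp1 mRNA came next. Of 10 listed genes, 8 passed the filter. Ern2, the gut form of IRE1, was listed at 0 in all groups and Map3k5, the kinase ASK1 downstream of IRE1, was below 1 FPKM on average. Among the 8, none was called in Ago2+/+ tunicamycin or Ago2-/- thapsigargin, 1 was called higher in Ago2+/+ thapsigargin and 2 in Ago2-/- tunicamycin. All loci were called at the shares given above for each comparison, which for higher calls were 14.9% and 19.3% in the last 2, and the same shares apply to the lists below. The gene called in both was Rtraf, a subunit of the tRNA ligase complex, at 34.8 and 89.3 FPKM in Ago2+/+ DMSO and thapsigargin (log2 ratio 1.34) and at 41.5 and 83.9 FPKM in Ago2-/- DMSO and tunicamycin (1.00). The ligase gene Rtcb itself had log2 ratios between -0.16 and 0.45 against DMSO. The other end genes of the list were Traf2, the adaptor that IRE1 recruits (0.31 in Ago2+/+ tunicamycin, -0.25 and -0.45 in Ago2-/- under tunicamycin and thapsigargin), Zbtb8os, which encodes the ligase cofactor archease (-0.34 and -0.31 in Ago2+/+), and the helicase gene Ddx1 (0.56 in Ago2-/- thapsigargin). List medians were -0.03, 0.11, -0.06 and -0.17 in the order Ago2+/+ tunicamycin, Ago2+/+ thapsigargin, Ago2-/- tunicamycin and Ago2-/- thapsigargin, which is used for all lists below.

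Among 6 further ERAD lectins, mannosidases and glycan enzymes, between 0 and 2 were called in each comparison. None was called higher in Ago2+/+ under either stressor, 2 were in Ago2-/- tunicamycin and none in Ago2-/- thapsigargin, and the genes called lower numbered 1, 0, 0 and 1. Past 1.5-fold in either direction were 29.2%, 27.5%, 36.9% and 31.2% of all loci in these 4 comparisons. The medians were -0.01, 0.13, 0.49 and 0.17. Os9, a lectin that delivers substrates to SEL1L, was at 19.8 FPKM in Ago2-/- DMSO and 45.5 in Ago2-/- tunicamycin (log2 ratio 1.16). Ngly1, which encodes the cytosolic glycanase, had the lowest ratio of the list in Ago2+/+ tunicamycin (-0.69). It had the highest of the list in Ago2-/- thapsigargin (0.44), and was called higher in Ago2-/- tunicamycin (0.67). Edem3, the third EDEM gene, had the highest ratio in Ago2+/+ thapsigargin (0.55) and the lowest in Ago2-/- thapsigargin (-0.75), like Edem1 in sign. Man1b1, an ER mannosidase gene, was at the top in Ago2+/+ tunicamycin with 0.24, and Uggt1, the folding sensor of the glycan cycle, was at the bottom under Ago2+/+ thapsigargin (-0.20) and Ago2-/- tunicamycin (-0.14).

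Counted in both directions together, the ubiquitin enzymes and membrane adaptors around the HRD1 complex were called no more often than loci in general. Of 23 genes, 4, 4, 3 and 1 were called higher and 1, 1, 2 and 6 lower in the 4 stressor comparisons, with medians of -0.04, 0.13, 0.20 and -0.03, against the 27.5% to 36.9% of all loci called in either direction. By direction, the 6 called lower in Ago2-/- thapsigargin exceeded the 16.8% of loci called lower there. The 4 called higher in each Ago2+/+ comparison lay near the 15.2% and 14.9% of loci called higher. Selenok, a selenoprotein that binds derlins, was at 75.6 and 167 FPKM in Ago2+/+ DMSO and thapsigargin (log2 ratio 1.14). Fam8a1, a cofactor of HRD1, was at 11.1 and 25.3 FPKM in Ago2-/- DMSO and tunicamycin (1.12). Rhbdd1, an ER rhomboid protease gene, followed the cross-label pairs, with 30.2 and 37.4 FPKM in Ago2+/+ tunicamycin and Ago2-/- DMSO and between 13.6 and 17.2 FPKM elsewhere. Its log2 ratios were 1.10 in Ago2+/+ tunicamycin and -1.11 and -1.08 in Ago2-/- under tunicamycin and thapsigargin. Rnf145, a ubiquitin ligase gene, was highest in Ago2-/- thapsigargin at 44.1 FPKM (1.34). The lowest ratios in the Ago2+/+ comparisons belonged to Ube2k (-0.61, tunicamycin), a ubiquitin-conjugating enzyme gene, and Erlin1 (-0.75, thapsigargin), which encodes an ER lipid raft protein. Rnf139, Rnf170 and Ube2g2 share their loci with other genes, so their values cannot be assigned to 1 gene.

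The genes that extract and deliver substrates were called in a minority, as were loci in general. Of 12, 1, 0, 1 and 0 were called higher and 0, 1, 2 and 2 lower, where 27.5% to 36.9% of all loci were called in either direction, and the medians were 0.24, 0.32, -0.06 and -0.15. Vcp, the ATPase that pulls substrates out of the membrane, had its highest log2 ratio, 0.52, in Ago2+/+ thapsigargin and stood at -0.52 in Ago2-/- thapsigargin. Ufd1, its cofactor, was highest in Ago2-/- tunicamycin (0.67) and Get4 in Ago2-/- thapsigargin (0.24). Past 2-fold were Svip, a VCP inhibitor gene, and Yod1, a deubiquitinase gene. Svip was at 3.61 and 4.15 FPKM in Ago2+/+ tunicamycin and Ago2-/- DMSO and at most at 0.590 FPKM elsewhere. It passed the filter only through the groups where it was high. Its ratios were 2.19 in Ago2+/+ tunicamycin and -1.70 and -2.31 in Ago2-/- under tunicamycin and thapsigargin. Their size depends on the 1 FPKM added to each value, and no weight is placed on its calls. Yod1 was at 4.33 and 1.36 FPKM in Ago2-/- DMSO and tunicamycin (-1.17) and had the lowest ratio of the list in Ago2+/+ thapsigargin (-0.74). Ubl4a shares its locus with Slc10a3.

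Known XBP1s target genes outside ERAD had medians of the same sign as the ratio of Syvn1 in all 4 stressor comparisons. Of 16 genes for chaperones, translocation and vesicle coats, 5, 10, 2 and 0 were called higher and 0, 0, 0 and 10 lower in the 4 comparisons. Of all loci, 15.2%, 14.9%, 19.3% and 14.3% were called higher and 14%, 12.6%, 17.5% and 16.8% lower, so the 2 called in Ago2-/- tunicamycin did not exceed the share of loci in general. Their medians were 0.48, 0.64, 0.28 and -0.97, where the medians over all loci were 0.01, 0.01, 0.00 and -0.02. Dnajb9, which encodes the chaperone ERdj4, was at 9.86, 28.2 and 31.4 FPKM in Ago2+/+ under DMSO, tunicamycin and thapsigargin and at 29.0, 35.7 and 9.05 FPKM in Ago2-/-. It was thus between 28.2 and 35.7 FPKM in 4 groups and lower in Ago2+/+ DMSO and Ago2-/- thapsigargin, with log2 ratios of 1.43 and 1.58 in Ago2+/+ under tunicamycin and thapsigargin. Dnajc3, the gene for the chaperone P58IPK, was at 45.6, 71.1 and 110 FPKM in Ago2+/+ and at 67.2, 118 and 21.5 FPKM in Ago2-/-, and had the highest ratio of the list in Ago2-/- tunicamycin (0.80) and one of 1.24 in Ago2+/+ thapsigargin. Creld2 and Sec61b, a secreted ER stress protein gene and a translocon subunit gene, had log2 ratios of 1.03 and 1.26 in Ago2+/+ thapsigargin and of -1.64 and -1.16 in Ago2-/- thapsigargin. Sec24d (-1.46), Wfs1 (-1.36) and Txndc11 (-1.10) were also lower past 2-fold in Ago2-/- thapsigargin, and Dnajb9 and Dnajc3 stood at -1.58 and -1.60. The lowest ratio of the list belonged to the coat gene Sec23b in Ago2+/+ (-0.33 and -0.14). In Ago2-/- tunicamycin it belonged to Pdia6, a disulfide isomerase gene (-0.37). Rpn1, an oligosaccharyltransferase subunit gene, had the highest ratio of the list in Ago2-/- thapsigargin (-0.02).

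Transcripts known as RIDD substrates differed in both directions. Of 7 genes, 3, 5, 6 and 3 were called higher and 3, 2, 0 and 4 lower, against 14.3% to 19.3% of all loci higher and 12.6% to 17.5% lower, with medians of 0.04, 1.58, 1.76 and -0.74. Bloc1s1, the most widely used RIDD substrate and here in 1 locus with Rdh5, was at 59.9, 28.0 and 37.3 FPKM in Ago2+/+ and at 29.3, 43.1 and 68.5 FPKM in Ago2-/-. Its log2 ratios were -1.07 and -0.67 in Ago2+/+ under tunicamycin and thapsigargin and 0.54 and 1.19 in Ago2-/-. Bloc1s1 and Ern1 were both highest in Ago2+/+ DMSO and Ago2-/- thapsigargin. Hgsnat, a lysosomal enzyme gene, was also highest there, with 18.3 and 18.9 FPKM against at most 14.0 FPKM elsewhere. Its log2 ratios were -1.16 and -0.64 in Ago2+/+ and 0.62 and 1.02 in Ago2-/-. Pdgfrb, a growth factor receptor gene that is also one of the fibroblast markers, was at 0.540, 9.13 and 13.9 FPKM in Ago2+/+ (2.72 and 3.27) and at 7.84, 17.9 and 0.799 FPKM in Ago2-/- (1.10 and -2.30). Pmp22 had ratios of 1.89, 3.13, 1.90 and -2.21, Scara3 of 1.32, 2.87, 1.76 and -1.31, and Col6a1 of -0.97, 1.06, 2.51 and 1.33. Scara3 was at 0.00632 FPKM in Ago2+/+ DMSO and at 0.0220 FPKM in Ago2-/- thapsigargin, where Pmp22 was at 0.818 FPKM. The size of ratios that involve these values depends on the 1 FPKM added. Sparc was past 2-fold in Ago2+/+ thapsigargin (1.58) and Ago2-/- tunicamycin (2.01). Among the fibroblast markers, Fn1 was low in the same groups as Pdgfrb, Pmp22 and Scara3, with 46.4 and 95.2 FPKM in Ago2+/+ DMSO and Ago2-/- thapsigargin against 290 to 600 FPKM in the other 4, while S100a4 was highest in those groups (1967 and 1926 FPKM against 285 to 1004 FPKM). The part of these differences in the list was not tested.

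**Figure D4:**
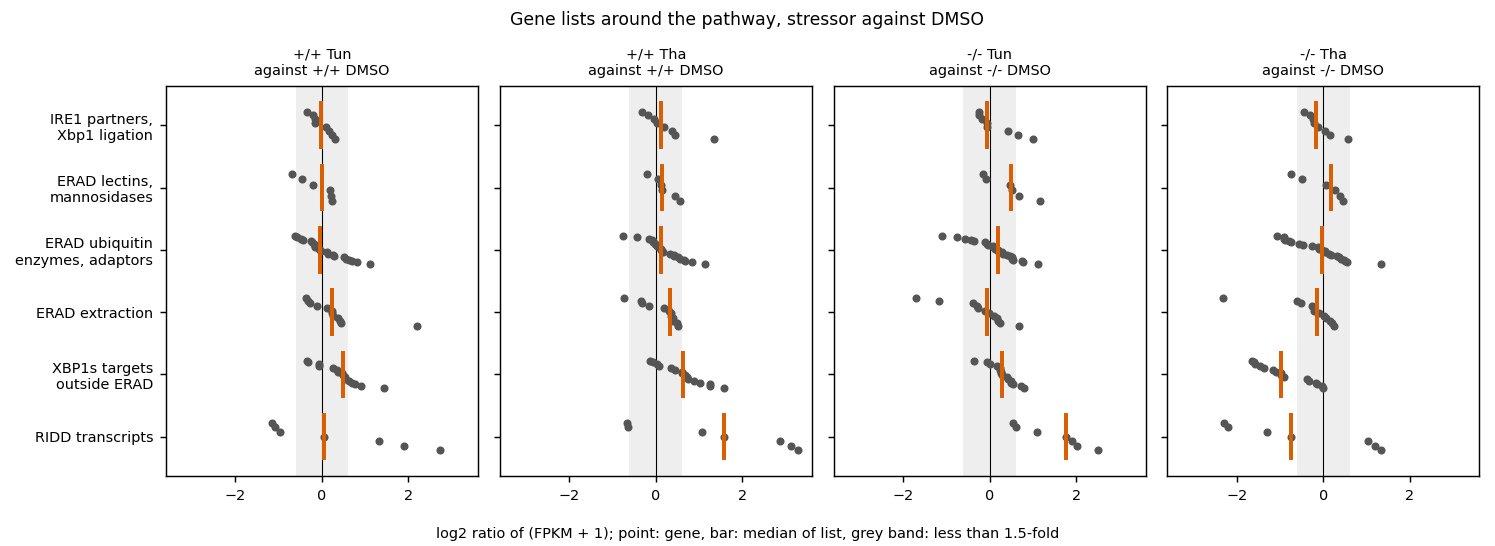
Log2 ratio of FPKM + 1 (horizontal axis) for every gene of 6 lists around the pathway (points) and the median of each list (orange bars) in the 4 comparisons of a stressor with DMSO; the grey band marks less than 1.5-fold, and points carry no error. The XBP1s targets outside ERAD have medians of 0.48, 0.64 and 0.28 in the first 3 panels and of -0.97 in the last.

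The loci most like the 3 widest-ranging members were then sought. Likeness was the root mean square difference of log2(FPKM + 1), centred on its mean over the 6 groups, among 11575 loci that hold 1 gene and passed the filter. The nearest to Ern1 were Gspt2, a translation termination factor gene (0.11), Mb21d2 (0.12) and Il24, a cytokine gene (0.12). Gspt2 was at 10.6 FPKM in Ago2+/+ DMSO and 8.95 in Ago2-/- thapsigargin, between 4.34 and 4.76 in Ago2+/+ tunicamycin and Ago2-/- DMSO, and at 2.25 and 2.34 in the last pair. Il24 was listed at 0 in Ago2+/+ thapsigargin and Ago2-/- tunicamycin.

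The nearest to Syvn1 were Adcy3, an adenylate cyclase gene (0.08), Rrbp1, which encodes a ribosome-binding protein of the rough ER (0.09), and Txndc11, an ER thioredoxin-domain gene that is also in the list of XBP1s targets (0.10). Rrbp1 was at 94.9, 154 and 172 FPKM in Ago2+/+ under DMSO, tunicamycin and thapsigargin and at 157, 200 and 64.0 FPKM in Ago2-/-. Near Edem1 lay Zbtb8a (0.07) and Akap17b (0.09), and Zbtb8a was at 5.27 and 6.25 FPKM in Ago2+/+ thapsigargin and Ago2-/- tunicamycin and between 1.69 and 3.01 FPKM elsewhere.

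**Figure D5:**
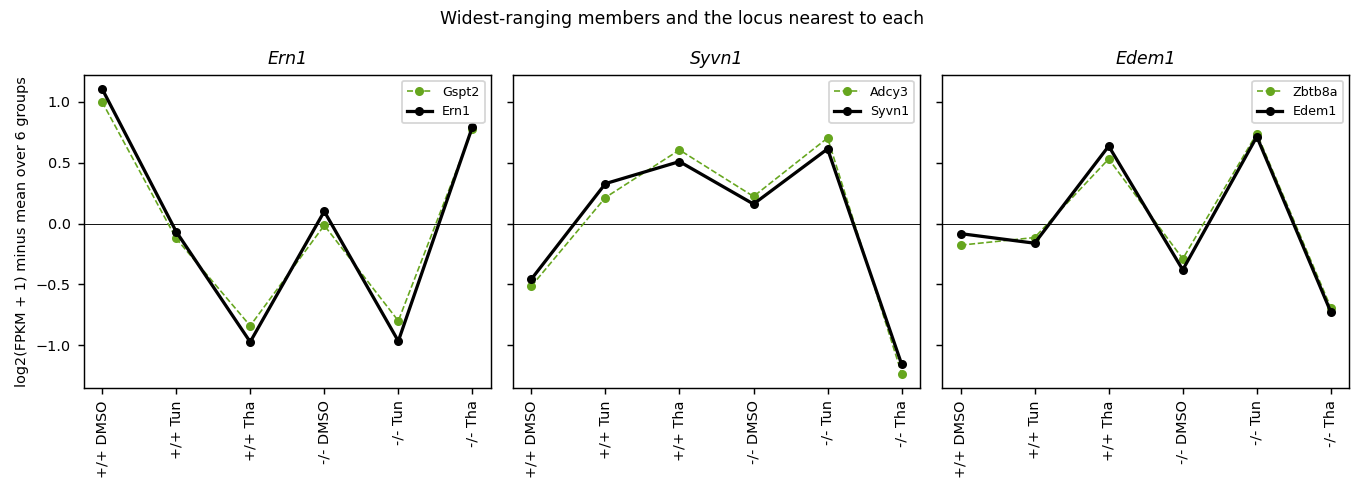
Log2(FPKM + 1) minus its mean over the 6 groups (vertical axis) for Ern1, Syvn1 and Edem1 (black) and the locus nearest to each (dashed, green) in the 6 groups; lines only guide the eye between groups. Ern1 peaks in +/+ DMSO and -/- Tha, Syvn1 dips in the same groups, and Edem1 peaks in +/+ Tha and -/- Tun.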

How the data were processed

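RNA of 18 libraries was sequenced, 3 in each of 6 groups. According to the labels and the methods of the study, the authors checked reads with FastQC 0.11.7, aligned them to GRCm38 with HISAT2 2.1.0, assembled transcripts with StringTie 1.3.4d guided by Ensembl release 91, and quantified them with Cuffdiff 2.2.1. The deposited FPKM are 1 value per group and locus, scaled by the authors for transcript length and mapped fragments; for strandedness the sources used here give no statement. The table's own fold changes, test statistics, p-values and q-values were not used. Depth is unknown.

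The table and the library titles write DCR1 for Ago2+/+. For each locus, log2 ratios of FPKM + 1 were computed in 7 comparisons (Python 3.11.15, pandas 2.3.3), with a filter of a mean of at least 1 FPKM over the groups and a call at 1.5-fold. No test was made, since the table holds no value per library and the authors' test columns were left out. Alternatives were 2-fold, a pseudocount of 0.1 FPKM, median centring and no filter. Members and lists were chosen with earlier results of these data known. Named genes are all members, the highest, lowest and past-2-fold genes of each list against DMSO, and the 3 nearest loci to the 3 members with the widest range; some of these genes are not reported here. Other genes are label, lineage or stress checks, or were named after their values were seen (Rtcb).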

Additional observations from a re-analysis of the deposited data

Results flagged for a closer look

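The log2 ratio of thapsigargin to DMSO had opposite signs under the 2 genotype labels for 3 members past 1.5-fold in both. These are differences between groups as labelled, in which treatment cannot be told apart from cell population. Expressed as the log2 ratio to DMSO in Ago2-/- minus that in Ago2+/+, the difference was 2.77 for Ern1, -2.28 for Syvn1 and -1.70 for Derl1. These members were picked because they were called in opposite directions, so large differences follow from that choice. The share of all loci called in opposite directions was not counted. With 1 pooled value per group, these differences were not tested. Ago2+/+ thapsigargin differed from Ago2-/- thapsigargin also in Acta2 (1644 against 3.77 FPKM) and in Ddx3y (23.3 FPKM against a listed 0), and the part of such differences was not tested.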

How the results depend on the processing

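At 2-fold in place of 1.5-fold, the number of members called was 1 in place of 2 in Ago2+/+ tunicamycin, 1 in place of 4 in Ago2+/+ thapsigargin, 1 in place of 5 in Ago2-/- thapsigargin, 1 in place of 2 between genotypes under DMSO and 0 in place of 4 under tunicamycin. It was 2 in place of 3 in Ago2-/- tunicamycin and stayed at 5 between genotypes under thapsigargin. Between 12.9% and 17.9% of all loci were past 2-fold. Without the filter, Derl3 was added in Ago2-/- tunicamycin (4 members in place of 3) and between genotypes under tunicamycin (5 in place of 4), the other counts stayed, and between 7.60% and 10.1% of the 51499 loci were past 1.5-fold. None of the 63 log2 ratios of members changed sign under centring on the median of all loci (largest shift 0.03) or with a pseudocount of 0.1 FPKM (largest shift 0.10). Leaving out a library in turn was not run, since the table is pooled. No paired analysis was possible because the table holds 1 value per group and no value per library. The 4 libraries with conflicting labels could not be left out for the same reason.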
